A study of Mus musculus with 3 samples.

Results

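The purinergic and adenosine receptor genes described here are 10 genes chosen by symbol. They are the adenosine receptors Adora2a and Adora2b, the ATP-gated channels P2rx4 and P2rx7, the nucleotide receptors P2ry2, P2ry6, P2ry12, P2ry13 and P2ry14, and Entpd1. All 10 were found among the 55536 annotated genes, of which 22028 are protein-coding. The rule names symbols and uses no measured value, though the genes were chosen with earlier results of these data known.

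Total RNA sequencing was available for 3 libraries of 1 group, made from the chromatin fraction of C57BL/6J mouse macrophages, phagocytes grown in culture from bone marrow. Every culture had received 100 ng/ml Lipid A, the Toll-like receptor 4 agonist of bacterial lipopolysaccharide, for 12 h, a washout of 12 h, and 100 ng/ml Lipid A again for 40 min. No genotype change or transgene is named, and all 3 libraries carry the same strain-level donor label, so the spread between them may be partly technical. Cells that had not been stimulated were not analysed here, so no level below is a response to Lipid A. The libraries were prepared from different amounts of RNA, namely 1 µg (replicate 1), 250 ng (replicate 2) and 500 ng (replicate 3). Depth ran between 13802716 and 17187524 expected counts in annotated genes. All 10 macrophage markers were detected, with 6.32 to 368 TPM. Over 9 lists of markers of other cell types, 11 of 61 genes were detected in the gene tables and 28 of 61 in the table made directly from the reads. The T cell genes Cd3e, Cd3d and Cd3g had 0 counts in every gene table, but Cd3d averaged 475 and Cd3g 31.1 estimated counts from the reads. Cd5, also of the T cell list, had 73, 72 and 85 counts. The part of other cells in the levels below was not tested.

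ATP, ADP, UTP, UDP and UDP-sugars leave stressed or activated cells and act on neighbours as extracellular signals. P2X receptors are ion channels opened by ATP, while P2Y receptors are G protein-coupled receptors that differ in the nucleotide they bind. CD39, the product of Entpd1, removes phosphates from extracellular ATP and ADP, and the adenosine formed further along that route acts on Adora2a and Adora2b, which raise cyclic AMP. In macrophages P2X7 is known as a trigger of the NLRP3 inflammasome, P2Y2 and P2Y6 for chemotaxis and phagocytosis, and the A2 receptors for damping inflammatory cytokine production. Chromatin-associated RNA is rich in transcripts still being made, which often retain introns.

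Sequences at the starts and first splice junctions are given first, because several results below concern where the RNA of a gene begins and whether its first intron is present. The P2rx4 pair shares the end of exon 1 in lower case (chr5:122707758-122707787, plus strand, mm10), which is coding. In P2rx4-202 the capitals are the start of exon 2 (chr5:122714399-122714428), and in P2rx4-208 they are the first bases of intron 1 (chr5:122707788-122707817). Both come from the GENCODE M21 transcripts.
P2rx4-202: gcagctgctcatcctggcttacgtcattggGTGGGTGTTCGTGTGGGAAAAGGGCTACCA
P2rx4-208: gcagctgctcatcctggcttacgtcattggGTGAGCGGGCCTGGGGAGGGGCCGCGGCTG

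The P2rx7 pair shares the start of exon 2 in lower case (chr5:122652727-122652756, plus strand), and the capitals are the coding end of each transcript's own exon 1. That exon ends at chr5:122644169-122644198 in P2rx7-203 and at chr5:122650510-122650539 in P2rx7-208.
P2rx7-203: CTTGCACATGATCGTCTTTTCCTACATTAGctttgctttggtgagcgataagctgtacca
P2rx7-208: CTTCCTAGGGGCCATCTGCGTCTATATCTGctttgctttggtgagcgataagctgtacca

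Promoter windows, 250 bases before to 50 bases after a start, came from RefSeq on GRCm38.p6 and matched 8 of the 10 genes with 14 windows. Pairs are printed for P2rx7, P2ry14 and Entpd1, where windows exist at both starts compared below, with capitals marking motif matches. The P2rx7 windows lie at chr5:122643677-122643976 and chr5:122650133-122650432, plus strand.
P2rx7 upstream start: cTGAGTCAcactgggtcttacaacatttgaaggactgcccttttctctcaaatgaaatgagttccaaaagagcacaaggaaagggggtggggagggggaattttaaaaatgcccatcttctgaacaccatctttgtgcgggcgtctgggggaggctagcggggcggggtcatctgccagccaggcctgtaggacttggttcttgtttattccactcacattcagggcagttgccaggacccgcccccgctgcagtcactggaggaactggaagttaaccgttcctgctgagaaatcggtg
P2rx7 downstream start: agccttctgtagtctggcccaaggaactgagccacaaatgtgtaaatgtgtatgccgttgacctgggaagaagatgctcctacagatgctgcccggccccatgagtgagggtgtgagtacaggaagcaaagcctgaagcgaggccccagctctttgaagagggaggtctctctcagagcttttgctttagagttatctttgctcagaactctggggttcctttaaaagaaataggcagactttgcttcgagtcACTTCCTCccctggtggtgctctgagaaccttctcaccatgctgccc
The P2ry14 windows lie at chr3:59153443-59153742 and chr3:59131279-59131578, minus strand.
P2ry14 upstream start: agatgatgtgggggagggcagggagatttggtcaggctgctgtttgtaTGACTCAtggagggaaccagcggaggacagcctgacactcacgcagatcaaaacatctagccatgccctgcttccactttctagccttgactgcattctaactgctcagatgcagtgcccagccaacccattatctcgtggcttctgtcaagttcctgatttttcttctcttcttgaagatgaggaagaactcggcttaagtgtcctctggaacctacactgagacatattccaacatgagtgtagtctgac
P2ry14 downstream start: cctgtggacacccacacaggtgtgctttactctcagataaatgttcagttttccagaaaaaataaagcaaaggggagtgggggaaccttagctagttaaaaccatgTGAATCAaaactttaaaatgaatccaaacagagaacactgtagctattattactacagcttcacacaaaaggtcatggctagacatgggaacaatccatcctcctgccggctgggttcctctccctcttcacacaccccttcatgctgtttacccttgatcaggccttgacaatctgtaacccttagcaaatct
The Entpd1 windows lie at chr19:40612116-40612415 and chr19:40659520-40659819, plus strand.
Entpd1 upstream start: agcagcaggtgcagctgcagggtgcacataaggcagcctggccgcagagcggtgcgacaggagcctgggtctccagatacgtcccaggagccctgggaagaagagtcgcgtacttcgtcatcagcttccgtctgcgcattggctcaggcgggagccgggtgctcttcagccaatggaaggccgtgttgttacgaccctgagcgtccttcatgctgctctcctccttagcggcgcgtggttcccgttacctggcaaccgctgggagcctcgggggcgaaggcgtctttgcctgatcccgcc
Entpd1 downstream start: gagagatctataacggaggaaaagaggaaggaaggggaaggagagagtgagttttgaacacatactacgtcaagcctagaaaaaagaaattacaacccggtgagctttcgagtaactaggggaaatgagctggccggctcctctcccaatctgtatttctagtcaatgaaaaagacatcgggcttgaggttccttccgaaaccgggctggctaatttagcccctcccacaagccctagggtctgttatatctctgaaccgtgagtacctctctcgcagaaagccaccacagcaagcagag

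Both strands of every window were searched. The AP-1 letters TGANTCA, held by 7.81% of all 32851 promoter windows, matched in 3 windows of 2 genes. They lay at -249 to -243 from the start in P2rx7, at -202 to -196 in the upstream P2ry14 window and at -144 to -138 in the printed downstream one. The PU.1 letters GAGGAAGT, in 3.2% of windows, matched on the opposite strand at 3 to 10 bases past the P2rx7 downstream start. A match to the NF-kB site consensus, in 8.46% of windows, was found in P2ry12 on the opposite strand at -51 to -42. That position counts from the RefSeq start, and no P2ry12 transcript quantified here starts inside the window. TATAAA, held by 13.6% of windows, matched in a further P2ry14 window on the opposite strand at -118 to -113. Neither the cyclic AMP response element TGACGTCA (1.79% of windows) nor the ISRE letters (3.44%) occurred in the 14 windows. A match describes letters only, and these windows say nothing on binding.

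All 10 genes were detected, meaning a mean of at least 10 expected counts, against 49.7% of protein-coding genes (10952 of 22028). Their levels spanned a 252-fold range of mean TPM, a unit that corrects for transcript length and depth. The median of the 10 mean levels was 23.2 TPM, against 0.44 TPM over all protein-coding genes and 7.32 TPM over the detected ones. P2rx4, Entpd1, P2ry6 and P2rx7 were above the 90th percentile of protein-coding genes (29.1 TPM), and 7 of the 10 lay in the top quartile. In such bulk RNA, fewer cells that express a gene and less RNA per cell cannot be told apart. Together the 10 genes held 0.0693% of the counts, and P2rx4 alone held 51.2% of that.

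**Figure D1:**
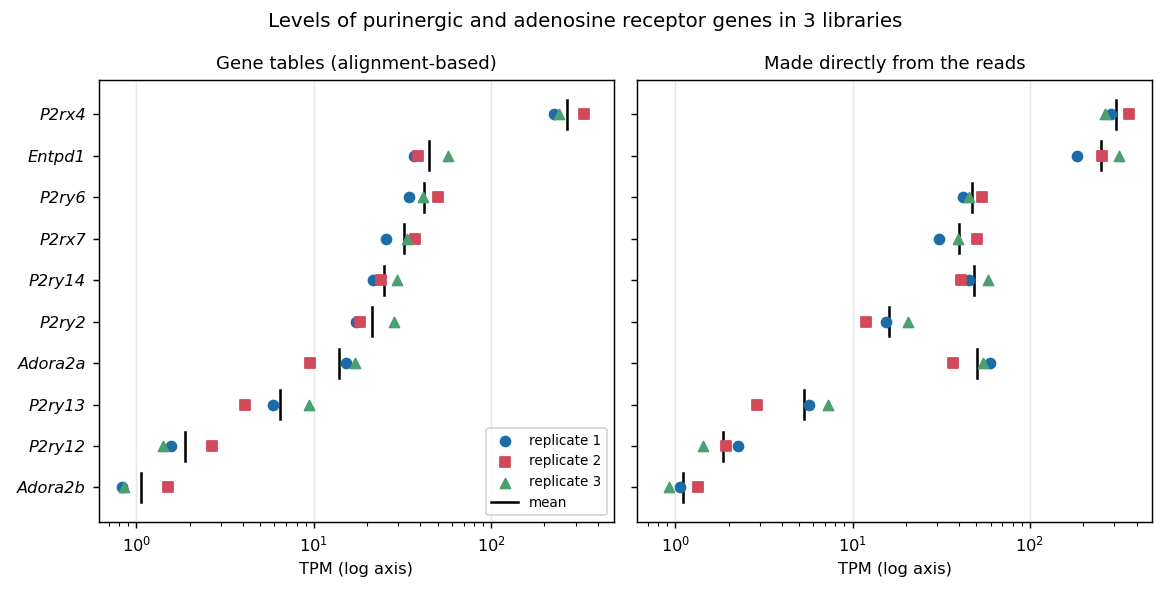
TPM of each gene in each library (log axis) in the gene tables (left) and in the table made directly from the reads (right), with points for replicates 1, 2 and 3 and a bar for the mean. By mean, P2rx4 is highest and Adora2b lowest in both panels, although replicate 3 has Entpd1 (319) above P2rx4 (266.5) in the right one. Entpd1 and Adora2a stand further right there than in the left panel.

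Among the channels, P2rx4, an ATP-gated cation channel of plasma membrane and lysosomes, had 227, 333 and 240 TPM in replicates 1, 2 and 3, from 4678, 7056 and 5217 counts. Its mean of 267 ± 57.5 TPM (SD, n = 3) ranked 154th among protein-coding genes. P2rx7, whose channel opens at high ATP, had 25.7, 37.2 and 33.7 TPM, from 1167, 1661 and 1357 counts, a mean of 32.2 ± 5.87 TPM (SD, n = 3). The ratio of P2rx4 to P2rx7 was 8.83, 8.95 and 7.14 in the 3 libraries, so the channels kept their order in each. The genes are neighbours on the plus strand of chromosome 5, with P2rx7 at chr5:122643911-122691432 and P2rx4 at chr5:122707544-122729738. They lie 16.1 kb apart with no protein-coding gene wholly between them.

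Of the UDP and UTP receptors, P2ry6, the UDP receptor, had 34.5, 50.3 and 41.4 TPM, from 338, 546 and 374 counts, a mean of 42.1 ± 7.92 TPM (SD, n = 3). P2ry2, which binds ATP and UTP, had 17.3, 18.2 and 28.4 TPM, from 222, 200 and 346 counts, a mean of 21.3 ± 6.18 TPM (SD, n = 3). P2ry6 was the higher in every library, by 2.00, 2.76 and 1.46 times, and the ranges did not overlap. Over coding transcripts alone the alignment-based ranges did overlap. P2ry6 had 6.81, 14.5 and 8.99 TPM there, and P2ry2 had 5.64, 4.67 and 8.73 TPM. From the reads, coding transcripts of P2ry2 were the higher in replicate 3, at 8.24 against 7.22 TPM. These genes also neighbour each other, on the minus strand of chromosome 7, at chr7:100937630-100974649 for P2ry6 and chr7:100996568-101012866 for P2ry2, with 21.9 kb between them.

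The receptors P2ry12, P2ry13 and P2ry14 couple to inhibitory G proteins and lie side by side on the minus strand of chromosome 3. P2ry14, the receptor for UDP-glucose and related UDP-sugars, was the highest of them with 21.7, 23.96 and 29.4 TPM, from 1607, 1666 and 2131 counts, a mean of 25.01 ± 3.93 TPM (SD, n = 3). P2ry13, an ADP receptor, had 5.86, 4.10 and 9.44 TPM, from 190, 133 and 287 counts, a mean of 6.47 ± 2.72 TPM (SD, n = 3). P2ry12, the ADP receptor of platelets and microglia, had 1.56, 2.66 and 1.42 TPM, from 37, 47 and 37 counts, a mean of 1.88 ± 0.679 TPM (SD, n = 3). The order P2ry14, P2ry13, P2ry12 held in every library, and none of the 3 ranges overlapped. Over coding transcripts alone the alignment-based ranges of P2ry14 and P2ry13 did overlap, though the order held in each library. P2ry14 had 7.92, 9.88 and 9.93 TPM there, and P2ry13 had 5.86, 4.10 and 9.44 TPM. From the reads these ranges stayed apart, at 33.2, 31.0 and 43.6 TPM for P2ry14 and 5.68, 2.91 and 7.30 TPM for P2ry13. Because P2ry12 is a platelet gene, the marker list for megakaryocytes and platelets stands beside it. In that list 3 of 8 markers were detected, and the summed level was 5.18, 9.78 and 5.60 TPM. The detected ones were Itga2b, Gp9 and Gp1ba, with means of 2.01, 1.77 and 0.63 TPM from 30.7, 15.7 and 21.3 counts. Among the undetected ones, Gp1bb was at 0 and Pf4 had a mean of 2.36 TPM from 8 counts. The part of such cells in the P2ry12 level was not tested.

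All 3 genes of that cluster lie inside Med12l (chr3:59005825-59318682), a Mediator subunit gene read from the opposite strand, at P2ry14 chr3:59113855-59153618, P2ry13 chr3:59207892-59210882 and P2ry12 chr3:59216272-59262871. Med12l had 1.23, 0.88 and 1.27 TPM. It shares 9 exonic bases with P2ry12 and 0 with P2ry13 and P2ry14. Whether the counting used strand is not given in the sources used here. If it did not, reads of unspliced Med12l RNA and of these 3 genes cannot be told apart, whether or not exons are shared. P2ry12, which also shares exonic bases, has a level like that of Med12l.

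Among the adenosine receptors, Adora2a (chr10:75316877-75334784, plus strand) had 15.3, 9.57 and 17.0 TPM, from 299, 178 and 284 counts, a mean of 13.97 ± 3.91 TPM (SD, n = 3). Adora2b (chr11:62248984-62266453, plus strand), a receptor of lower affinity for adenosine, was the lowest of the 10 genes with 0.83, 1.5 and 0.85 TPM, a mean of 1.06 ± 0.381 TPM (SD, n = 3). Only 19, 34 and 18 counts stood behind it. The 95% Wilson interval in replicate 2 was 1.42 to 2.76 CPM, a unit that scales counts to library size, around a value of 1.98, and such intervals cover counting error only. Adora2a exceeded Adora2b by 18.4, 6.38 and 20.1 times, with replicate 2 the lowest ratio. In the table from the reads the ratios ran between 27.5 and 59.2.

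The nucleotidase gene Entpd1 (chr19:40612366-40741602, plus strand) had 36.9, 38.8 and 57.6 TPM, from 682, 820 and 1338 counts, a mean of 44.4 ± 11.4 TPM (SD, n = 3). Replicate 3 stood above the other two libraries. Its range overlapped that of P2ry6, the next gene down, which exceeded it in 1 of 3 libraries.

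Ordered by mean TPM, the genes ran P2rx4, Entpd1, P2ry6, P2rx7, P2ry14, P2ry2, Adora2a, P2ry13, P2ry12 and Adora2b. Ranges over the libraries did not overlap between P2rx4 and Entpd1, P2ry2 and Adora2a, Adora2a and P2ry13, or P2ry13 and P2ry12. P2rx4 exceeded Entpd1 by 6.00 times. The ranges of the other 5 neighbouring pairs overlapped. Within libraries, 4 of those pairs kept their order in 3 of 3, and Entpd1 exceeded P2ry6 in 2 of 3. In the table made from the reads the order was P2rx4, Entpd1, Adora2a, P2ry14, P2ry6, P2rx7, P2ry2, P2ry13, P2ry12 and Adora2b. P2rx4 exceeded Entpd1 there in 2 of 3 libraries, and Entpd1 was the higher in replicate 3.

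That table moved 2 genes most. Entpd1 reached 253 ± 67.5 TPM (SD, n = 3) there, 5.69 times its level in the gene tables. Adora2a reached 50.5 ± 12.0 TPM (SD, n = 3), which is 3.61 times. Their count ratios between the quantifications were 2.51 and 2.55, against a median of 1.68 over detected protein-coding genes, and the other 8 genes lay at or below that median. P2rx4 differed little, with 305 ± 50.6 TPM (SD, n = 3). The additional Adora2a counts lay largely in transcripts of a downstream start, 6243 to 7981 bases past the first, which held 45.2 ± 1.83% of its counts (SD, n = 3) in the table from the reads and 8.08 ± 1.41% in the alignment-based one. For Entpd1, short non-coding transcripts and Entpd1-209, annotated for nonsense-mediated decay, took a larger share, so that Entpd1-201 held 42.6% of counts in the table from the reads and 87.6% in the alignment-based one.

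Transcript classes differed widely among the genes. Retained-intron transcripts, which GENCODE annotates where an intron is kept, exist for P2rx4, P2rx7, P2ry2, P2ry6 and P2ry14. By TPM in the table made from the reads they held 54.5 ± 2.78% of P2rx4, 63.2 ± 2.74% of P2ry2, 53.2 ± 3.72% of P2ry6 and 25.3 ± 1.71% of P2ry14 (SD, n = 3), and next to nothing of P2rx7. Thus 3 of 5 genes reached 50%, against 39.4% of the 6715 genes that have such transcripts. By expected counts in the alignment-based table the shares were 66.1 ± 4.34% for P2rx4, 8.94 ± 1.33% for P2rx7, 26.5 ± 2.71% for P2ry2, 25.9 ± 5.56% for P2ry6 and 91.3 ± 0.503% for P2ry14 (SD, n = 3). On that measure 2 of 5 reached 50%, against 25.0% of those genes. P2rx4 passed 50% on every measure tried. P2ry14 passed by counts in both tables (91.3% and 83.8%) but by TPM only in the alignment-based one (62.8%, against 25.3% from the reads). Its retained-intron transcript has 7795 bases and its coding transcripts have 339 to 2476, and TPM divides by length. By counts from the reads 28.7% of those genes reached 50%, and 35.9% did by TPM in the alignment-based table. No test was made of these counts over so few genes.

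**Figure D2:**
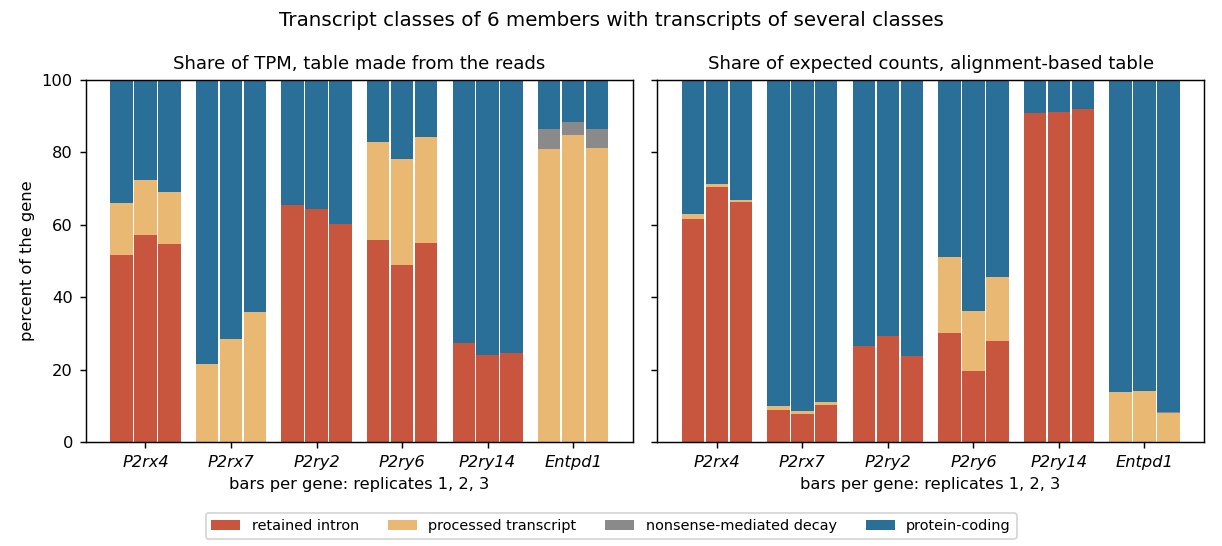
Percent of each gene held by each transcript class in replicates 1, 2 and 3, as a share of TPM in the table made from the reads (left) and as a share of expected counts in the alignment-based table (right). Retained-intron transcripts hold over 50% of P2rx4 in both panels, and 91.3% of P2ry14 counts in the right panel but 25.3% of its TPM in the left.

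By counts, most of the P2rx4 share came from P2rx4-208 (chr5:122707569-122711463), a single exon of 3895 bases that runs through the first splice site into intron 1, as in the junction sequences above. Only 219 of its bases lie in exons of coding transcripts. It held 2337, 4208 and 2995 counts, a mean of 55.7% of the gene. By TPM from the reads, P2rx4-208 held 15.8% and the shorter P2rx4-207 and P2rx4-203 held 20.3% and 18.5%. The spliced coding transcript P2rx4-202 held 1242, 1345 and 1052 counts in the alignment-based table. P2ry14-204 (chr3:59145824-59153618), a single exon of 7795 bases at the upstream start with 7721 bases outside coding exons, held 1459, 1519 and 1956 counts. Coding transcripts of P2ry14 together held 148, 147 and 175. A fragment from an intron can be assigned only to an annotated transcript that covers it, so these transcripts and other unspliced RNA of the same place cannot be told apart.

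P2rx7 showed a different picture. P2rx7-203, its full-length coding transcript, held 1015, 1421 and 1141 counts. Its retained-intron transcript P2rx7-205 lies wholly within coding-transcript exons at the 3' end, with 0 bases outside them, and is no measure of intron reads. In P2ry6 the coding transcript held 166, 349 and 203 counts and the retained-intron transcript P2ry6-202 held 102, 107 and 104. Over coding transcripts alone, alignment-based levels were 74.1 ± 4.89 TPM for P2rx4, 23.4 ± 4.41 TPM for P2rx7, 16.2 ± 6.84 TPM for Entpd1, 13.97 ± 3.91 TPM for Adora2a, 10.1 ± 3.96 TPM for P2ry6 and 9.24 ± 1.15 TPM for P2ry14 (SD, n = 3). From the reads the P2ry14 value was 35.95 ± 6.73 TPM, that of Adora2a 50.5 ± 12.0 TPM and that of Entpd1 32.9 ± 9.68 TPM (SD, n = 3). P2rx4 stayed first on coding transcripts, at 3.77, 2.89 and 3.02 times P2rx7 in replicates 1, 2 and 3, lower ratios than over the whole genes.

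Starts were compared by summing transcripts that begin within 2000 bases of each other, by counts and by TPM, which can differ because TPM divides by transcript length. In P2ry14 the upstream start held 93.7 ± 0.796% of counts (SD, n = 3) in the alignment-based table and 84.2 ± 0.517% in the table from the reads, nearly all of it in P2ry14-204. The downstream starts, 21156 to 22996 bases along, held 6.33 ± 0.795% and 15.8 ± 0.514%. By TPM from the reads the order reversed, with 25.97 ± 2.11% at the upstream start and 74.0 ± 2.11% at the downstream ones (SD, n = 3). Alignment-based TPM kept the order of the counts, at 71.9 ± 2.96% and 28.1 ± 2.95%. Of the TPM from the reads, 51.0% lay in P2ry14-209 alone, a transcript of 339 bases with 63.9, 78.2 and 103 counts. P2ry14-209 held 0 counts in the alignment-based table. It starts outside the printed downstream window, which covers the start of P2ry14-205. Entpd1 had little at its upstream start on every measure. This start, in the first printed Entpd1 window, held 0 counts in the alignment-based table and 6.84 ± 1.58% in the table from the reads. The start 47404 bases further along held 99.8 ± 0.0114% and 82.1 ± 3.20% (SD, n = 3). By TPM from the reads these starts held 4.88 ± 1.42% and 66.4 ± 3.87%.

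For P2rx7 the upstream start held 89.98 ± 1.66% of counts and the alternative first exon of P2rx7-208 held 0.984 ± 0.183% in the alignment-based table, or 11.3, 13.5 and 15.9 counts. In the table from the reads P2rx7-208 held 6.94 ± 0.569%, or 91.3, 181 and 130 counts, and 9.41 ± 0.742% of TPM (SD, n = 3). Both tables placed the bulk of P2rx7 on the first exon printed for P2rx7-203. In P2ry2 the start 8979 bases downstream, that of P2ry2-206, held 33.1 ± 10.7% (alignment) and 51.7 ± 4.39% (reads) of counts. By alignment it held 44.6, 31.2 and 23.4% in replicates 1, 2 and 3, less than the upstream start in each. From the reads it held 53.8, 54.8 and 46.7%, so neither start held more in every library. By TPM both tables gave more to the upstream start, 88.3 ± 4.21% (alignment) and 78.9 ± 0.962% (reads) (SD, n = 3). Starts of P2ry12 could not be read at its 37 to 47 counts, since P2ry12-202 held 24.1, 41.5 and 20.9 counts in the alignment-based table and 0 in the other.

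**Figure D3:**
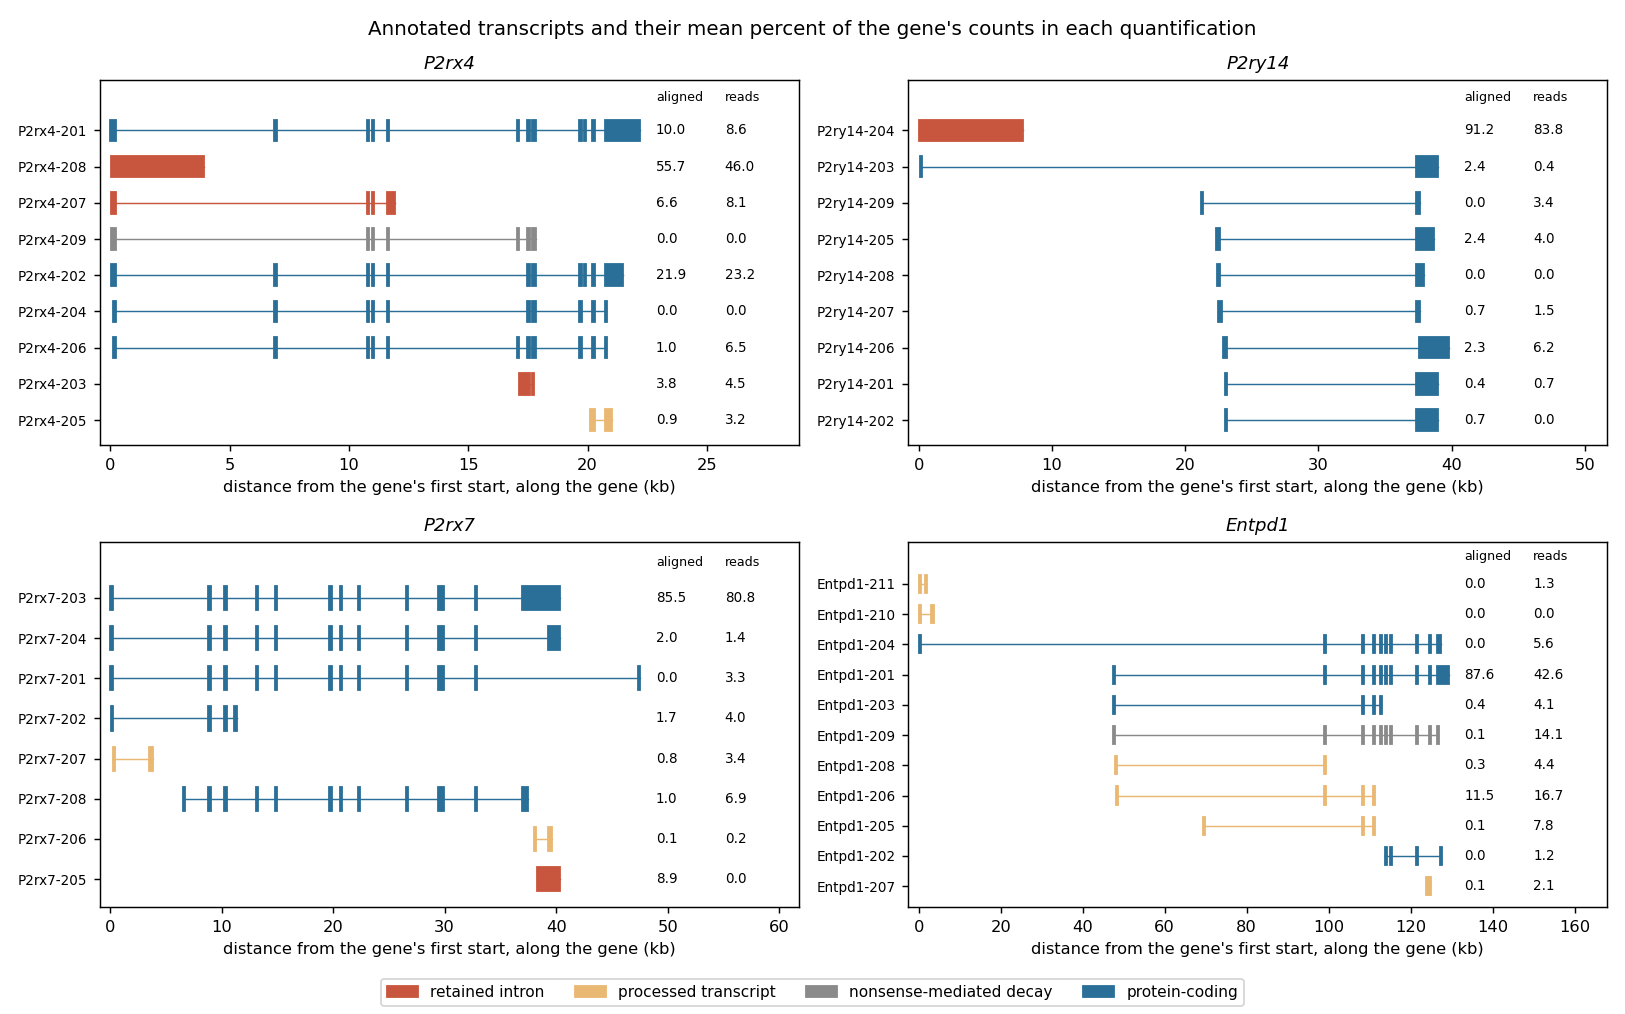
Annotated transcripts of P2rx4, P2ry14, P2rx7 and Entpd1, drawn along each gene in kb from its first start, with boxes for exons and colours for transcript classes. Numbers at the right are the mean percent of the gene's counts over 3 libraries in the alignment-based table and in the table from the reads: 55.7 and 46.0 for P2rx4-208, 91.2 and 83.8 for P2ry14-204.

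Spread over the libraries was tested per gene, as a chi-square test of the rounded counts against counting noise after TMM scaling (a correction for library composition), with Benjamini-Hochberg adjustment over 14330 genes. Variation passed an adjusted p of 0.05 for 7 of the 10 genes, against 55.2% of all genes tested, so the share is not far from the background. P2ry13 spread most, with deviations from its own mean of 0.17, -0.76 and 0.58 on the log2 CPM scale in replicates 1, 2 and 3, a 2.53-fold range (chi-square test, adjusted p = 8.97e-18). Adora2a followed with 0.47, -0.69 and 0.21, a 2.24-fold range (chi-square test, adjusted p = 7.29e-17). P2ry2 covered a 2.03-fold range and Entpd1 a 1.91-fold range, with chi-square adjusted p-values of 3.69e-14 and 1.35e-57. P2rx4 also passed, at 8.73e-16, although its range was only 1.15-fold, because its 4678 to 7056 counts leave little counting noise. P2ry14 (1.82e-33) covered a 1.5-fold range and P2ry6 (0.0034) a 1.24-fold range.

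P2rx7 had the smallest SD of the 10 genes, 0.05 on the log2 CPM scale, at percentile 3.15 of detected protein-coding genes, and did not pass (chi-square test, adjusted p = 0.289). It did pass with total count scaling (chi-square test, adjusted p = 3.95e-05) and from the reads (chi-square test, adjusted p = 0.000352). Adora2b (0.302) and P2ry12 (0.88) did not pass either, on 18 to 47 counts per library. Median SD of the 10 genes was 0.32, against 0.24 over detected protein-coding genes, and 6 lay above the latter value.

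On that TMM-scaled log2 CPM scale, replicate 2 was the lowest library for Adora2a, P2ry2, P2ry13, P2ry14 and Entpd1 and the highest for P2rx4, P2rx7, P2ry6 and Adora2b. By TPM, replicate 1 was instead the lowest for P2ry2, P2ry14 and Entpd1, and replicate 2 the highest for P2ry12 too. Replicate 2 had the smallest RNA input, 250 ng, and the largest depth, 17187524 counts. Their part in the spread was not tested. Without replicate 2, variation passed for 4 of 10 genes, namely P2ry2, P2ry13, P2ry14 and Entpd1, against 27.2% of all genes. Without replicate 3, Entpd1 no longer passed, and 6 of 10 genes did against 41.6% of all genes.

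**Figure D4:**
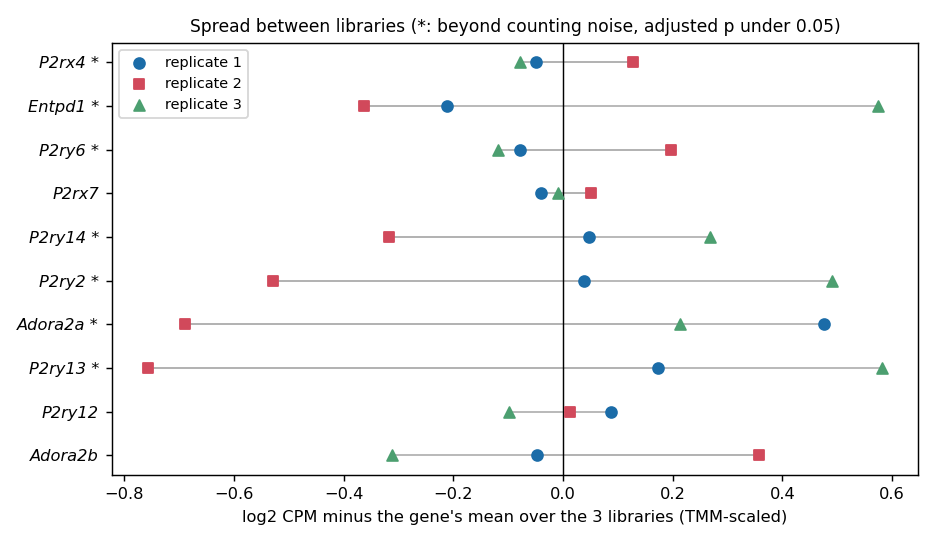
Deviation of each library from the gene's mean on the log2 CPM scale after TMM scaling, for replicates 1, 2 and 3, with an asterisk where variation passed the chi-square test. P2ry13 reaches from -0.76 in replicate 2 to 0.58 in replicate 3, while the points of P2rx7 nearly coincide.

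Other genes of the pathway were read from 7 lists, of which 40 of 67 genes were detected, or 59.7%, against 49.7% of protein-coding genes. None of the other adenosine receptors (2 genes) or other P2X channels (5 genes) was detected, and 2 of 8 other P2Y and P2Y-like receptors were. From the reads 1 of 2, 2 of 5 and 6 of 8 of these receptors reached 10 counts, and 51 of all 67 genes. Adora1 had 0 counts in all libraries, and Adora3 averaged 8.67 counts and 0.39 TPM but 235 estimated counts and 5.44 TPM in the table from the reads. Of the P2X channels, P2rx1, P2rx6 and P2rx5 averaged 0.26, 0.24 and 0.15 TPM, and P2rx2 and P2rx3 had a mean of 1 count each. P2ry10b and Gpr34 were the detected P2Y-like genes, with 1.52 ± 0.127 and 1.45 ± 0.399 TPM (SD, n = 3). P2ry1, P2ry4 and P2ry10 averaged 4.67, 1.33 and 1.01 counts.

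Enzymes and transporters set the levels of extracellular nucleotides and adenosine, but not every enzyme listed here need act outside cells. Of 16 other ectonucleotidases and related enzymes, 10 were detected. The highest were Cd38, an NAD glycohydrolase, at 22.1 ± 5.85 TPM, Entpd7 at 17.3 ± 4.56 TPM and Entpd4 at 10.6 ± 2.76 TPM (SD, n = 3). Entpd4 and its near-identical copy Entpd4b had almost equal counts, so their split is uncertain. All 3 stood below Entpd1, while Entpd2, Entpd3 and Entpd8 were not detected. Nt5e, which encodes CD73, the enzyme that turns AMP into adenosine, had 0.79 ± 0.288 TPM from a mean of 33.3 counts and is named here outside the rule for its role. For adenosine removal and transport 7 of 12 genes were detected, with the nucleoside transporter Slc28a2 at 108 ± 27.01 TPM, Pnp, purine nucleoside phosphorylase, at 91.9 ± 4.50 TPM and Adk, adenosine kinase, at 19.8 ± 2.54 TPM (SD, n = 3). Dpp4, Slc29a2 and Slc29a4 were not detected.

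For ATP release 6 of 9 genes were detected, led by Calhm6 at 27.4 ± 5.20 TPM, Calhm2 at 4.47 ± 1.86 TPM and Slc17a9, the vesicular nucleotide transporter, at 4.04 ± 0.456 TPM (SD, n = 3). Panx2, Panx3 and Calhm1 were not detected. All 15 signalling partners were detected. Nlrp3, the inflammasome sensor that P2X7 is known to engage, had 339, 257 and 495 TPM, Arrb2, a beta-arrestin, had 299, 423 and 314 TPM, and Adcy7, an adenylyl cyclase, averaged 83.4 ± 19.4 TPM (SD, n = 3). The ranges of Nlrp3 and Arrb2 overlapped that of P2rx4, the highest receptor.

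**Figure D5:**
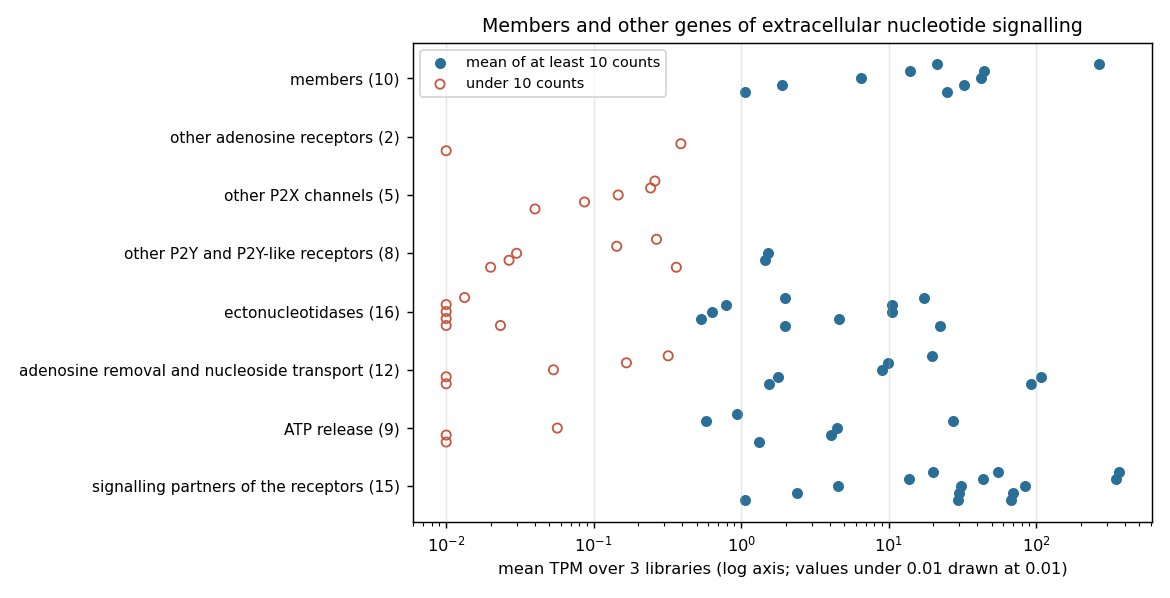
Mean TPM over 3 libraries (log axis, values under 0.01 drawn at 0.01) of the 10 genes and of 7 lists of other pathway genes, filled where the mean reached 10 counts and open where it did not. Other adenosine receptors and P2X channels are all open, at 0.39 TPM or lower, while all 15 signalling partners are filled.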

How the data were processed

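Per the labels' protocols, RNA of the chromatin fraction was depleted of ribosomal RNA. The authors deposited gene and transcript tables with expected counts and TPM on mm10, in the layout of RSEM, and a transcript table of estimated counts and TPM made directly from the reads, in the layout of kallisto. No aligner, version or strand setting is given in the sources used here. Annotation was GENCODE M21.

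Gene-table TPM gave the levels. Percentiles rank mean TPM among protein-coding genes, and a gene with a mean of at least 10 counts was called detected. Transcript shares are given as TPM of the table made from the reads, and as counts or from the alignment-based table as alternatives. Counts were rounded for the chi-square test, using TMM factors of 0.991, 1.075 and 0.938 from edgeR 4.0.16, and the log2 CPM took a prior count of 0.5. The test was tried on simulated data. DESeq2 1.42.0 gave alternative size factors. Python 3.11.15 and R 4.3.3 were used. Where a gene has 0 counts, the limit is 3 counts, equal to 0.217 CPM in replicate 1, 0.175 CPM in replicate 2 and 0.182 CPM in replicate 3.

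The genes, lists and tests were chosen with earlier results of these data known. Named were all 10 genes, the 3 highest and up to 3 undetected of each pathway list, and genes overlapping the 10; some are not reported here. Besides Med12l, these were Gm44545, opposite P2ry6 with 16.5 TPM and 0 shared exonic bases, and Mir8115, Gm16027, Gm8783 and AC166063.1, with 0 to 2 counts per library. Genes of like pattern were not sought, since 3 libraries allow no correlation. The labels call the libraries biological replicates, and p-values measure only the spread between them.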

Additional observations from a re-analysis of the deposited data

How the results depend on the processing

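The median level of the 10 genes, 23.2 TPM, became 43.5 TPM when quantified from the reads and 76.7 TPM when TPM were rescaled over protein-coding genes, and ran between 20.3 and 24.99 TPM when each replicate was left out. Protein-coding genes hold only 27.5% to 32.0% of the deposited TPM, so the rescaling raises every gene. The median percentile of 87.9 became 75.6 among detected protein-coding genes and 90.5 from the reads, and stayed between 86.5 and 88.8 when replicates were left out. All 10 genes remained detected from the reads and at 10 counts in every library, and 8 did at a mean of 50 counts. Variation beyond counting noise passed for 7 genes with DESeq2 size factors (54.6% of all genes) and with a minimum of 1 count (39.6%), and for 8, with P2rx7 added, under total count scaling (60.0%) or from the reads (54.8%). It passed for 4 to 7 when a replicate was left out (27.2% to 44.0% of all genes), and the cause was not tested. Pathway genes detected numbered 40, with 51 from the reads and 38 to 41 when a replicate was left out. Of 5 genes with retained-intron transcripts, 3 reached a share of 50% in either transcript table by TPM, though not the same 3 (39.4% of such genes from the reads and 35.9% by alignment), and 2 did by counts (28.7% and 25.0%). The count share in the alignment-based table was chosen after the data were seen. No paired analysis was possible because all 3 libraries belong to 1 group. Depth limits Adora2b and P2ry12 most, at 18 to 47 counts per library.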
